A study of Mus musculus with 2 samples.

Results

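The 10 genes described here encode the common building blocks of vascular basement membrane: the collagen IV chains Col4a1 and Col4a2, the multiplexin collagens Col15a1 and Col18a1, the laminin chains Lama2, Lama4, Lamb1 and Lamc1, and the linkers Nid1 (nidogen) and Hspg2 (perlecan). They were chosen by symbol, and all 10 were found among the 27998 genes of both count tables. The question was which cells of an injured artery carry their transcripts, with smooth muscle, endothelium and fibroblasts in view, and how the levels stood at 2 and at 4 weeks.

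Both groups came from male C57BL/6J mice, 8 weeks of age, in an intimal hyperplasia model. A guide wire was passed through the carotid artery to strip its endothelium, and the vessel was taken at day 14 (2 weeks) or at day 28 (4 weeks). The series design gives 18 animals at each time, but each time is 1 single-cell library, cells cannot be traced to an animal, and uninjured vessel was not analysed here. The labels conflict on the vessel, since the extraction text speaks of aortic grafts and of a dissected adventitia without saying which layer was kept. Sorted live nucleated cells were run on a 10x Genomics system, and transcripts were counted as unique molecular identifiers (UMIs).

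A basement membrane is a thin sheet of matrix. Endothelial cells rest on it, each smooth muscle cell of the media is wrapped in it, and fibroblasts contribute components to it. Laminins, each a trimer of an α, a β and a γ chain, form a network at the cell surface, collagen IV forms a second and covalently crosslinked network, and nidogen and perlecan join them. Collagens XV and XVIII sit at the boundary between basement membrane and interstitial matrix, and the tail of collagen XVIII is the source of endostatin. In vessels, the laminin α4 chain is known from endothelium and the α2 chain from muscle.

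After filtering, 5152 cells were kept at 2 weeks and 7422 at 4 weeks, with medians of 11775.5 and 8710 UMIs per cell. The libraries shared 8 cell barcodes. Cells were clustered with the 10 genes and 24 other basement membrane genes left out of the clustering, and clusters were named from marker lists. The fibroblast-like class held 1017 cells (19.7%) at 2 weeks and 3051 (41.1%) at 4 weeks. The smooth muscle cell-like class, a single cluster with 10 of 10 smooth muscle markers and 75% of the pericyte list, held 207 (4.02%) and 74 cells (0.997%). The endothelial cell-like class, also a single cluster with 10 of 10 endothelial markers, held only 41 and 26 cells. Both libraries also held cell types that are not part of an artery wall, among them 1425 and 756 thymocyte-like and 54 and 15 parathyroid cell-like cells. Differences between the libraries therefore have no replicate check, no p-values are given, and every interval in the text is an exact 95% interval for counting error only, which is narrower than the variation between animals or cells.

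Fibroblast-like cells held most of the transcripts of this gene set. The 10 genes had 87099 UMIs in all at 2 weeks and 109839 at 4 weeks, and fibroblast-like cells carried 74.8% and 91.3% of them. Smooth muscle cell-like cells carried 9.16% and 2.13%, and endothelial cell-like cells 2.73% and 0.514%. Of the 3 classes, fibroblast-like cells had the most UMIs of these genes per cell, 64.1 at 2 weeks and 32.9 at 4 weeks. Endothelial cell-like cells had 57.9 and 21.7, and smooth muscle cell-like cells 38.6 and 31.6. These values are not corrected for depth. Median depths were 22335 and 12528 UMIs in fibroblast-like, 12121 and 8982.5 in endothelial cell-like and 14999 and 11686 in smooth muscle cell-like cells. Relative to all UMIs of the class, endothelial cell-like cells were the highest of the 3 classes at 2 weeks. The smaller cluster 22, described below, stood above all 3 at both times. At 2 weeks the summed level, in UMIs per 1000000 UMIs of the class (CPM), was 4810.5 in endothelial cell-like cells, 2748 in fibroblast-like and 2562 in smooth muscle cell-like cells. At 4 weeks it was 2197, 2608 and 2588 CPM, so the 3 classes then lay closer together. Thymocyte-like cells, which should not make basement membrane, summed to 37.2 and 49.5 CPM, which serves below as a background. Whether this background is free RNA was not tested.

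**Figure D1:**
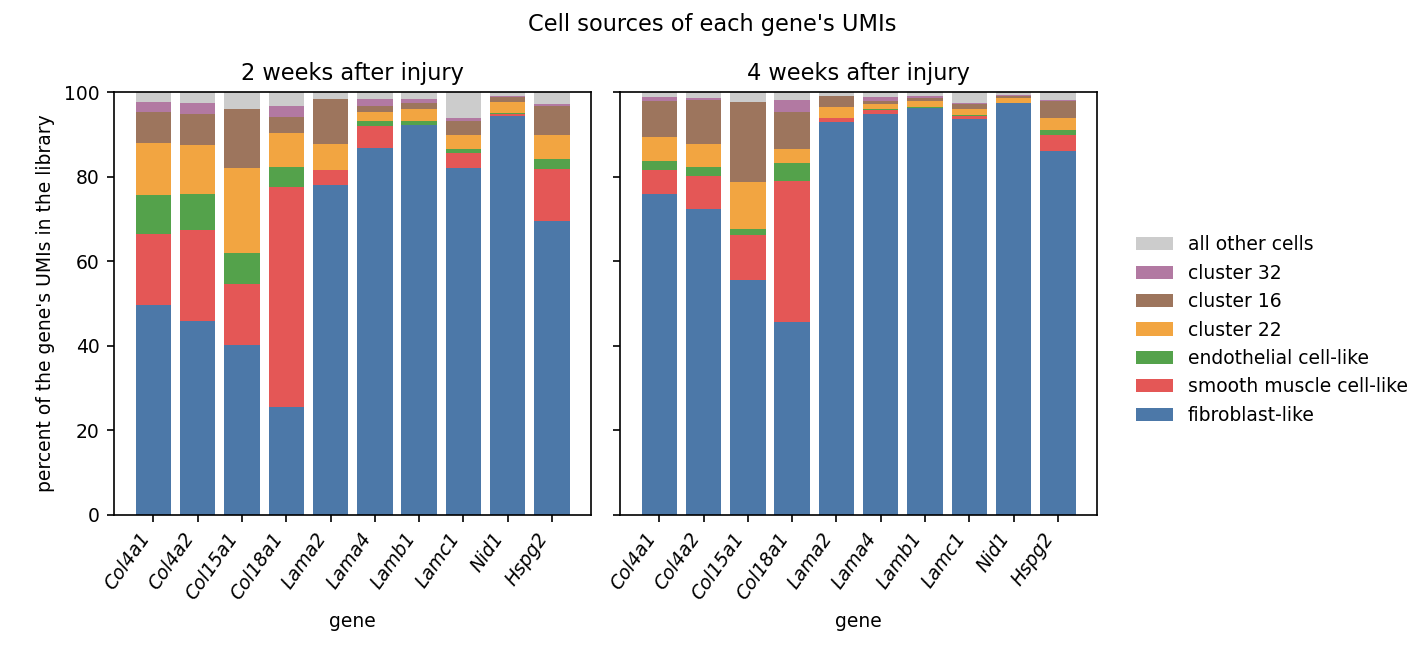
Percent of each gene's UMIs (y axis) found in each cell class or cluster at 2 weeks (left) and 4 weeks (right); the grey segment is all other cells. The fibroblast-like segment is above 90% for Lamb1 and Nid1 at both times, and Col18a1 has its largest 2-week segment, 52.0%, in smooth muscle cell-like cells.

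The genes differed in their sources. Fibroblast-like cells held 94.5% and 97.4% of Nid1 UMIs at 2 and 4 weeks, 92.2% and 96.3% of Lamb1, and 86.9% and 94.9% of Lama4. For collagen IV the fibroblast-like share was 49.7% and 75.9% of Col4a1 and 46.0% and 72.4% of Col4a2. Col18a1 stood at the other end, with 25.6% and 45.7% in fibroblast-like cells against 52.0% and 33.4% in smooth muscle cell-like cells. These shares depend on how many cells of each class were captured, and fibroblast-like cells were 19.7% of kept cells at 2 weeks and 41.1% at 4 weeks.

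Col4a1 and Col4a2 encode the chains of the most widespread collagen IV trimer. In mm10 (GENCODE M21) Col4a1 lies on the minus strand at chr8:11198423-11312826 and Col4a2 on the plus strand at chr8:11312805-11449287, head to head, so that their first exons overlap by 22 bases. That overlap, chr8:11312805-11312826, is shown because the pair shares its start region. It is written 5′ to 3′ on each gene's own strand from the RefSeq sequence (GRCm38.p6), with a GC box (GGGCGG or its complement) in capitals.
Col4a2 strand: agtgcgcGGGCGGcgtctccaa
Col4a1 strand: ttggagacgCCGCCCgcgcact

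Both genes were lowest in fibroblast-like cells among the 3 classes. Col4a1 stood at 186 CPM (181 to 192) at 2 weeks and 136 CPM (132 to 139) at 4 weeks in fibroblast-like cells, and at 482 CPM (458 to 507) and 439 CPM (396 to 484) in smooth muscle cell-like cells. In endothelial cell-like cells it stood at 1635 CPM (1524 to 1752) and 544 CPM (458 to 642). Endothelial cell-like cells thus had the highest Col4a1 of the 3 classes at both times, although at 4 weeks their interval overlapped that of smooth muscle cell-like cells. Col4a2 followed the same order at 2 weeks, with 102 CPM in fibroblast-like, 361 in smooth muscle cell-like and 904 in endothelial cell-like cells. At 4 weeks its levels were 69.4, 326 and 303 CPM, and the last 2 had overlapping intervals.

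The balance within the pair was close between fibroblast-like and endothelial cell-like cells. Of the Col4a1 and Col4a2 UMIs, Col4a1 made up 64.7% at 2 weeks and 66.2% at 4 weeks in fibroblast-like cells, and 64.4% and 64.2% in endothelial cell-like cells. In smooth muscle cell-like cells the share was lower, 57.2% (55.3 to 59.1) and 57.4% (53.6 to 61.1), and neither interval met those of fibroblast-like cells. Smooth muscle cell-like cells also had the other collagen IV chains Col4a5, at 228 and 278 CPM against 38.4 and 60.3 in fibroblast-like cells, and Col4a6, at 195 and 253 CPM against 2.99 and 7.08. Col4a5 is named after its values were seen. A share of UMIs is not a ratio of molecules, because capture can differ between genes, but it can be compared between cell classes for the same pair.

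Col15a1 and Col18a1 encode the multiplexins, collagens XV and XVIII. Their start regions are shown because the pair shares a protein family while its levels by cell class differed. Each is the RefSeq (GRCm38.p6) sequence upstream of the gene's first annotated start on its own strand, at chr4:47207762-47208011 (plus) for Col15a1 and chr10:77166549-77166780 (minus) for Col18a1. Capitals mark a CCAAT box (CCAAT) or a GC box (GGGCGG) on either strand. TATAAA and TGANTCA were searched as well, and no match overlaps another.
Col15a1: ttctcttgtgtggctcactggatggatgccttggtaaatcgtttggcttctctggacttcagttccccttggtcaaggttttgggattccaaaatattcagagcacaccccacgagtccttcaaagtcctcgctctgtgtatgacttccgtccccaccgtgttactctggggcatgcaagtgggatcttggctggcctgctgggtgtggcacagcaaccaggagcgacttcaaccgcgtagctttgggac
Col18a1: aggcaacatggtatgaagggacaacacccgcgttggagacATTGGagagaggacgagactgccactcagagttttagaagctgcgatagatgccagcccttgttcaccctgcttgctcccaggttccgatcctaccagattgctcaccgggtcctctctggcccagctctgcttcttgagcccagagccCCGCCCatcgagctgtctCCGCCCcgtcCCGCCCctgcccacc

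The Col18a1 stretch holds 1 CCAAT box and 3 GC boxes, and none of the 4 motifs is in the Col15a1 stretch. Across 32851 RefSeq windows of 300 bases, 37.4% hold CCAAT, 35.7% GGGCGG, 13.6% TATAAA and 7.81% TGANTCA on either strand, so these matches are common letters and describe the windows only. The table has a second Col18a1 start, and the counts cannot say which one was used. It has windows for 8 of the 10 genes, with none for Lama4 and Lamc1.

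Col18a1 was the gene most tied to smooth muscle cell-like cells. It stood there at 880 CPM (847 to 914) at 2 weeks and 876 CPM (816 to 939) at 4 weeks, against 56.9 and 28.1 CPM in fibroblast-like cells, and it was detected in 83.9% and 93.1% of cells thinned to 2700 UMIs. Endothelial cell-like cells had 511 and 373 CPM. In each library these 3 intervals did not overlap, with smooth muscle cell-like cells highest and fibroblast-like cells lowest.

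Of the 3 classes, Col15a1 was highest in endothelial cell-like cells at 2 weeks, with 758 CPM (683 to 839). Smooth muscle cell-like cells had 235 CPM and fibroblast-like cells 85.9. At 4 weeks smooth muscle cell-like cells were highest of the 3, with 347 CPM (309 to 387) against 163 (118 to 221) and 42.3. Col15a1 made up 60.1% of the multiplexin UMIs of fibroblast-like cells at both times, 21.1% and 28.4% in smooth muscle cell-like cells, and 59.7% and then 30.4% in endothelial cell-like cells. The fibroblast-like balance was thus the same for the class as a whole, and the endothelial intervals (55.8 to 63.6% and 22.9 to 38.8%) did not meet. Within the fibroblast-like clusters described below, Col15a1 had lower ratios of 4 weeks to 2 weeks than Col18a1. In clusters 0, 3, 5 and 7 its log2 ratios were -1.04, -0.70, -1.08 and 0.10, against -0.58, -0.30, -0.78 and 0.45. The intervals of the 2 genes overlapped in each of these clusters, whose sizes differed between the libraries.

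The laminin chains differed between the 3 classes. Lamb1, the β1 chain, was very low in smooth muscle cell-like cells, with 6 UMIs at 2 weeks (1.93 CPM) and 3 at 4 weeks (3.32 CPM), against 217 and 203 CPM in fibroblast-like cells and 111 and 66.1 CPM in endothelial cell-like cells. After thinning, 0.488% and 0% of smooth muscle cell-like cells had a Lamb1 UMI, and a count of 0 in 72 cells allows up to 4.17% of thinned cells with a UMI, which sets no limit on the share of cells that express the gene. Thymocyte-like cells had 0.530% and 0.475%, so the smooth muscle shares were not above this background. The median depths were 14999 and 11686 UMIs in smooth muscle cell-like cells and 4201 and 2840.5 in thymocyte-like cells. Free RNA can weigh more in shallower cells, so thinned shares cannot show whether the few smooth muscle UMIs are free RNA.

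Lamb2, the β2 chain, was highest where Lamb1 was lowest among fibroblast-like, smooth muscle cell-like and endothelial cell-like cells. It stood at 264 and 389 CPM in smooth muscle cell-like cells, 122 and 181 in fibroblast-like cells, and 66.9 and 171 in endothelial cell-like cells. Lamc1, the common γ1 chain, was lower in smooth muscle cell-like cells (80.9 and 84.2 CPM) than in fibroblast-like cells (246 and 272 CPM). Lamc3, a γ chain of narrower distribution, showed 73.8 and 137 CPM in smooth muscle cell-like cells, 0.295 and 0.312 CPM in fibroblast-like cells and 0 UMIs in endothelial cell-like cells, which allows up to 6.08 and 11.7 CPM.

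Among the α chains, Lama2 was not found in endothelial cell-like cells beyond a single UMI at 2 weeks. Its 0 UMIs at 4 weeks allow up to 11.7 CPM. Fibroblast-like cells had 112 and 146 CPM of Lama2 and smooth muscle cell-like cells 37.6 and 63.1. Lama4, the α chain common to vessels and mesenchyme, was present in all 3 classes, at 265 and 216 CPM in fibroblast-like, 120 and 99.7 in smooth muscle cell-like, and 166 and 81.7 in endothelial cell-like cells. Lama5, another α chain of endothelial basement membrane, stood at 91.2 and 70.0 CPM in endothelial cell-like and 53.9 and 46.5 in smooth muscle cell-like cells, and at 1.35 and 0.598 CPM in fibroblast-like cells. In fibroblast-like cells Lama2 made up 29.7% of Lama2 and Lama4 UMIs at 2 weeks and 40.2% at 4 weeks, and 23.8% and 38.8% in smooth muscle cell-like cells. Within the fibroblast-like clusters the counting intervals of the 2 libraries overlapped, with 36.4% and 36.6% in cluster 0, 50.6% and 48.0% in cluster 3, 49.2% and 51.8% in cluster 5 and 21.9% and 20.5% in cluster 7, whose cell numbers differed between the libraries.

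**Figure D2:**
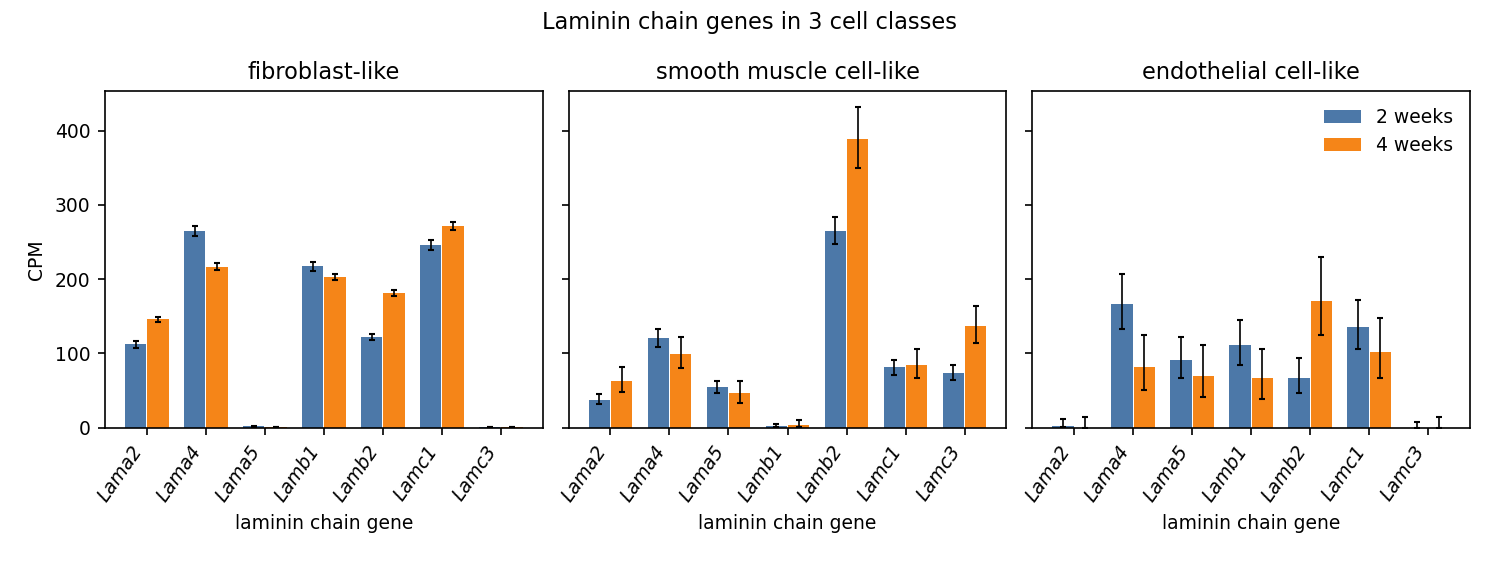
Level in CPM (y axis) of 7 laminin chain genes in fibroblast-like, smooth muscle cell-like and endothelial cell-like cells, with 2 weeks in blue and 4 weeks in orange; bars are the summed level of 1 library and error lines are exact 95% Poisson intervals. Lamb1 is at 1.93 and 3.32 CPM and Lamb2 at 264 and 389 CPM in smooth muscle cell-like cells.

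Nid1, which bridges laminin and collagen IV, was highest in fibroblast-like cells. It stood at 1234 CPM (1220 to 1248) at 2 weeks and 1313 CPM (1302 to 1325) at 4 weeks in fibroblast-like cells, 186 and 179 in endothelial cell-like cells, and 32.4 and 15.5 in smooth muscle cell-like cells. A Nid1 UMI was found in 6.34% and 4.17% of thinned smooth muscle cell-like cells and in 3.44% and 5.94% of thymocyte-like cells. At 4 weeks the smooth muscle share was thus not above the thymocyte-like share. The depths of the 2 classes differed as given above, so this cannot tell free RNA from expression. Its relative Nid2, named after its values were seen, gave 7 UMIs at 2 weeks and 0 at 4 weeks in smooth muscle cell-like cells, the latter allowing up to 3.32 CPM, and 44.6 and 46.7 CPM in endothelial cell-like cells.

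Hspg2 was the most evenly spread of the 10 across the 3 classes. Fibroblast-like cells had 243 CPM at 2 weeks and 182 at 4 weeks, smooth muscle cell-like cells 331 and 336, and endothelial cell-like cells 401 and 385. The intervals of the last 2 classes overlapped at both times, at 311 to 352 and 347 to 461 CPM at 2 weeks and 299 to 376 and 313 to 469 CPM at 4 weeks.

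**Figure D3:**
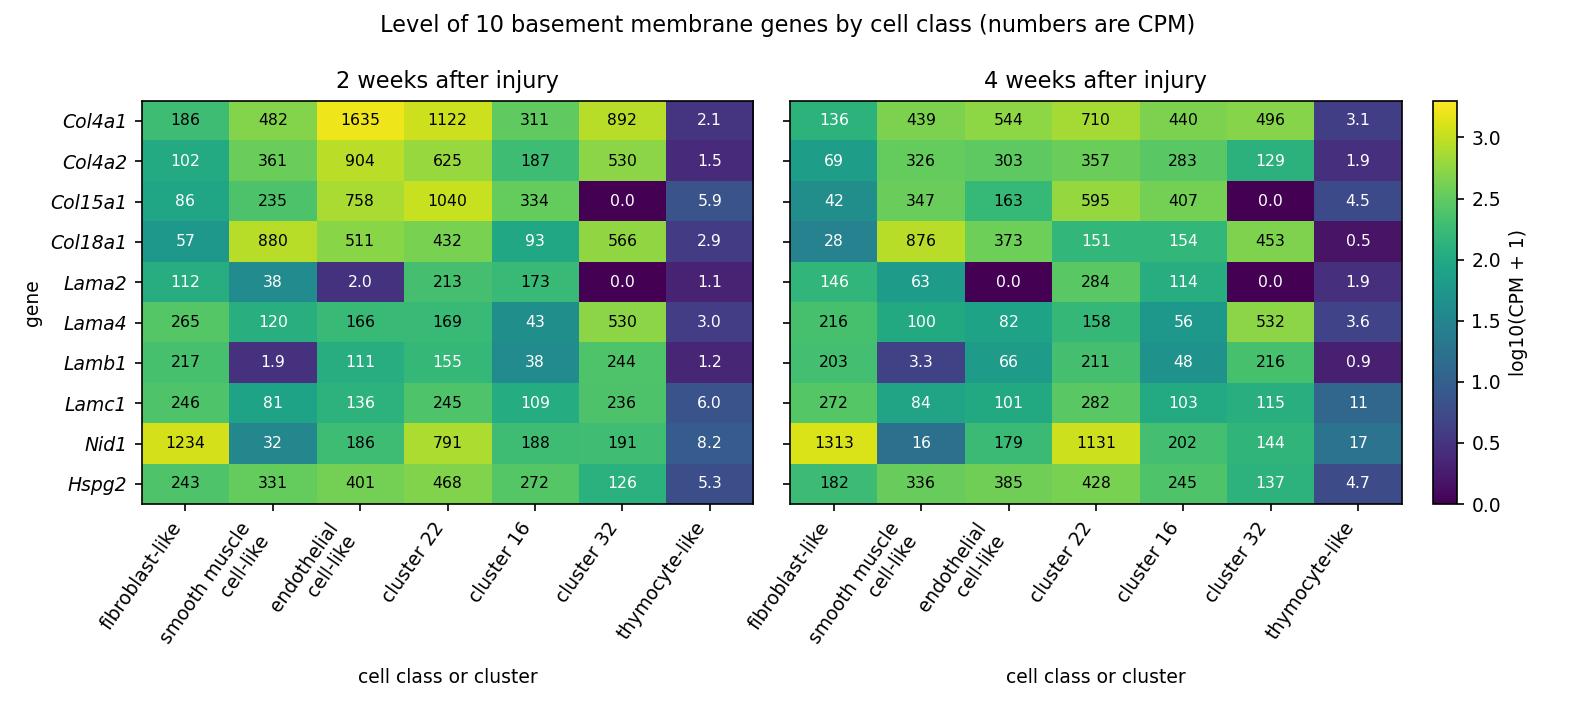
Level of each of the 10 genes in CPM (printed numbers; colour is log10(CPM + 1)) in 6 cell classes or clusters and in thymocyte-like cells as background, at 2 weeks (left) and 4 weeks (right). Lamb1 and Nid1 are low in smooth muscle cell-like cells, and Lama2 is at 2.03 and 0 CPM in endothelial cell-like cells.

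Set against fibroblast-like cells, smooth muscle cell-like cells were at least 2-fold higher for the same 4 genes in both libraries, the collagens Col4a1, Col4a2, Col15a1 and Col18a1. Across all genes with at least 20 UMIs, 14.1% were that much higher at 2 weeks and 15.6% at 4 weeks. They were at least 2-fold lower for 5 genes, Lama2, Lama4, Lamb1, Lamc1 and Nid1, beside 17.0% and 12.8% of all genes. On the log2 scale of CPM ratios, Col18a1 differed by 3.95 at 2 weeks and 4.96 at 4 weeks, Lamb1 by -6.82 (-8.27 to -5.70) and -5.93 (-8.21 to -4.38), and Nid1 by -5.25 and -6.40. Hspg2, at 0.45 and 0.88, was the gene short of 2-fold. Summed fibroblast markers were at 4784 and 3952 CPM in smooth muscle cell-like cells, beside 64033 and 47057 in fibroblast-like cells.

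Endothelial cell-like cells were at least 2-fold higher than fibroblast-like cells for 4 genes at 2 weeks (19.2% of all genes) and 5 at 4 weeks (18.2%). The 4 collagens were in both counts, between 3.13 and 3.17 on the log2 scale at 2 weeks and between 1.95 and 3.73 at 4 weeks, and Hspg2 joined them at 4 weeks with 1.08. They were at least 2-fold lower for 2 genes at 2 weeks (14.6% of all genes), Lama2 and Nid1, and for 5 at 4 weeks (11.4%), with Lama4, Lamb1 and Lamc1 added. Lama2, with 0 endothelial UMIs at 4 weeks, was lower by at least 3.64 on the log2 scale against a floor of 3 counts per library. The 2-week values of these 3 laminin chains were -0.67, -0.96 and -0.86, short of 2-fold. Scaling by the median ratio over genes, which shifts all endothelial values at 2 weeks by 0.56, puts 5 genes past 2-fold at 2 weeks too. Against smooth muscle cell-like cells, 5 genes were at least 2-fold higher in endothelial cell-like cells at 2 weeks (18.7% of all genes) and 1 was lower (20.0%), and at 4 weeks 2 were higher (14.5%) and 3 lower (19.7%). Lamb1 and Nid1 were in both counts of higher genes, Lamb1 with log2 ratios of 5.85 and 4.31 and Nid1 with 2.52 and 3.53.

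In fibroblast-like cells, the ratio of 4 weeks to 2 weeks differed between the genes. Col15a1 was lower by 2-fold, with 2037 UMIs (85.9 CPM) at 2 weeks and 1626 (42.3 CPM) at 4 weeks and a log2 ratio of -1.02 (-1.12 to -0.93). Col18a1 had the same ratio, -1.02 (-1.13 to -0.90), from 56.9 to 28.1 CPM. Both stood at -0.93, short of 2-fold, in cells with at most 5% mitochondrial UMIs. Col4a1 (-0.46), Col4a2 (-0.55), Hspg2 (-0.41) and Lama4 (-0.29) were lower by less. Lamb1 (-0.10), Nid1 (0.09) and Lamc1 (0.15) stood within 0.2 of no difference, and Lama2 was higher by 0.38 (0.31 to 0.45). The 2 genes past 2-fold compare with 5.37% of 13769 genes lower and 2.38% higher by that much, and the median of the 10 was -0.35 beside 0.01 over all genes. In the same cells, summed smooth muscle markers went from 248 to 64.7 CPM, macrophage markers from 204 to 49.98 and erythroid markers from 17.2 to 324.8. Their part in these ratios was not tested.

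**Figure D4:**
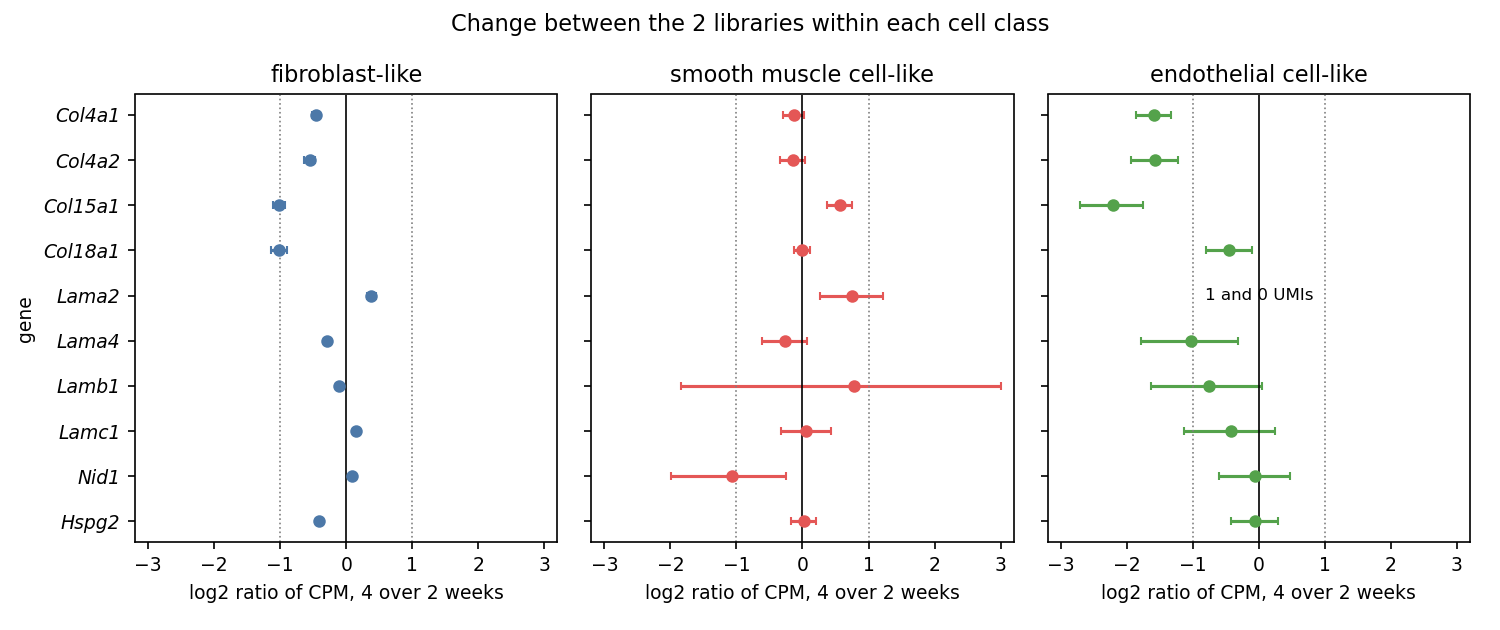
Log2 ratio of CPM, 4 weeks over 2 weeks (x axis), for each of the 10 genes in 3 cell classes; points are the ratio between 2 libraries, bars its exact 95% interval for counting error, and dotted lines mark 2-fold. Col15a1 lies at -1.02 in fibroblast-like, 0.56 in smooth muscle cell-like and -2.21 in endothelial cell-like cells.

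The fibroblast-like class is made of 5 clusters whose sizes differed between the libraries. Cluster 7, led by Ptx3, Cxcl5 and Tnfaip6, had 501 cells at 2 weeks and 111 at 4 weeks, whereas cluster 0, led by Dact2 and Pla1a, had 185 and 1293. Clusters 3 (Cxcl13, Col6a5), 5 (Cilp, C1qtnf3) and 11 (C7) had 171, 110 and 50 cells at 2 weeks and 760, 626 and 261 at 4 weeks. The 10 genes marked these clusters differently. Col15a1 was low in cluster 0, at 9.496 and 4.61 CPM, and highest in cluster 5, at 207 and 97.7 CPM. Nid1 was highest in cluster 0, at 1876 and 1835 CPM, and lowest in cluster 11, at 484 and 526 CPM. Col18a1 was highest in cluster 7, at 70.2 and 96.2 CPM.

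Within clusters the change between libraries was not uniform. In cluster 5, Col4a1 went from 398 to 208 CPM (log2 ratio -0.94), Col4a2 from 225 to 125 (-0.85), Col15a1 from 207 to 97.7 (-1.08) and Lamb1 from 172 to 88.1 (-0.97). In cluster 7 the collagen IV genes were higher at 4 weeks, Col4a1 at 254 against 173 CPM (0.56) and Col4a2 at 137 against 95.4 (0.52), and so was Col18a1 (0.45). When the 5 clusters were given equal weight, no gene passed 2-fold: Col15a1 was at -0.56 and Col18a1 at 0.02 instead of -1.02. The Col18a1 value leans on cluster 11, with 1 UMI at 2 weeks and 21 at 4 weeks, and it is -0.30 without that cluster. Lama2 went from 0.38 to -0.06. Lama4 went from -0.29 to 0.07 and Nid1 from 0.09 to -0.06. Col18a1 was lower by its interval in clusters 0 (-0.58) and 5 (-0.78) and higher in cluster 7, while Nid1 was lower in 3 of 5 clusters and higher in 0. The class values of Lama2 and Nid1 thus turn with the weight of the clusters. Those of Lama4 and Lamb1 (-0.10 to 0.04) turn too, but their equal-weight values also lean on cluster 11. There Lama4 was at 0.85 and Lamb1 at 0.81, on 5 and 4 UMIs at 2 weeks, with intervals that reached 0.

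**Figure D5:**
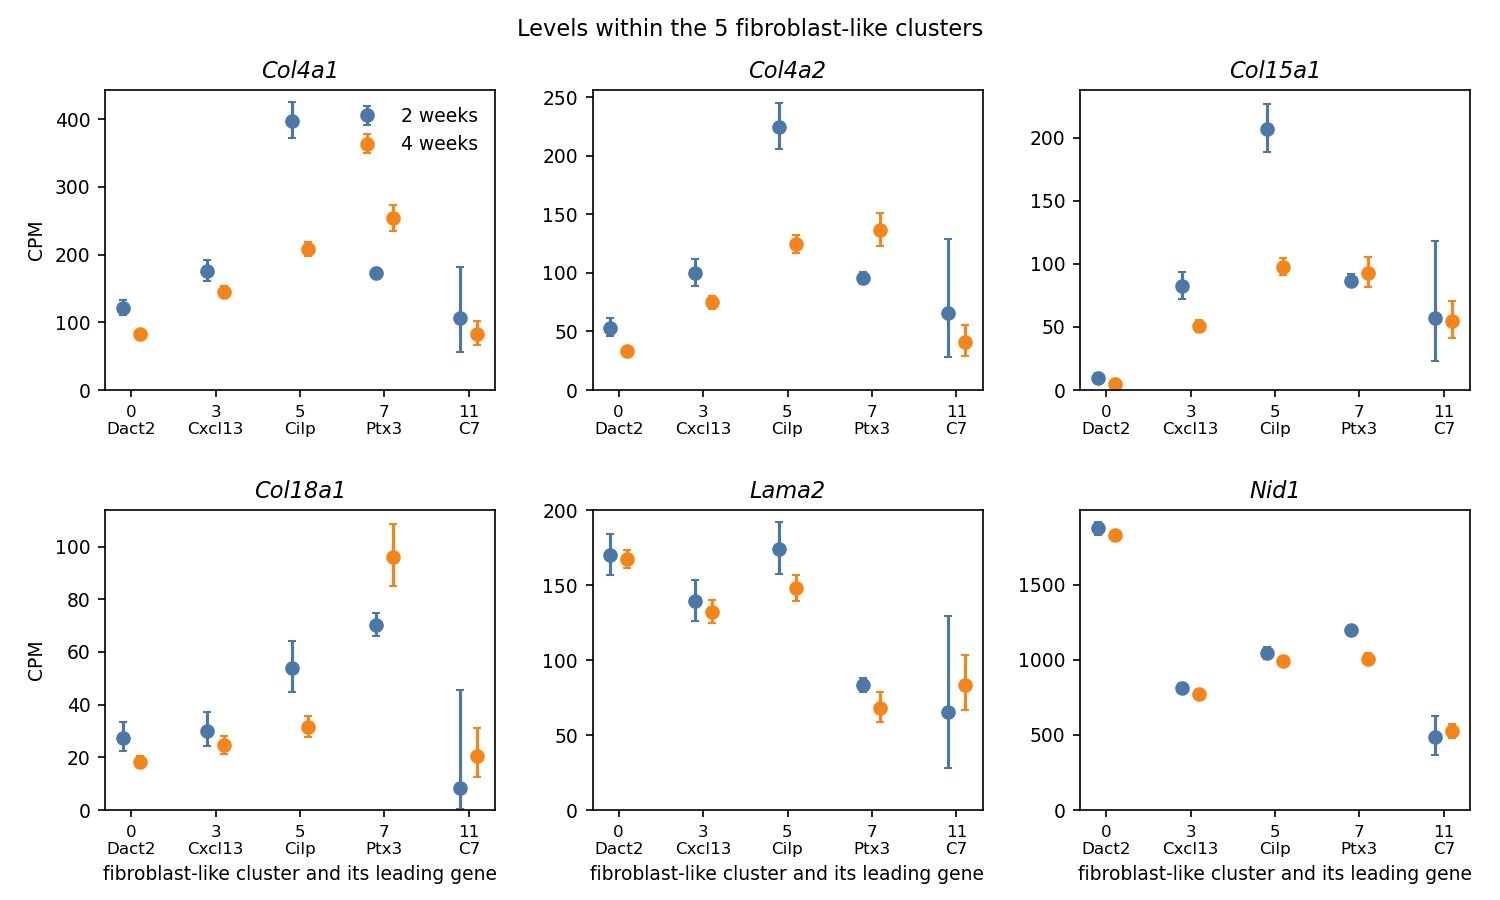
Level in CPM (y axis) of 6 genes in the 5 fibroblast-like clusters (x axis, with the leading gene of each) at 2 weeks (blue) and 4 weeks (orange); error lines are exact 95% Poisson intervals. Col4a1 and Col15a1 peak in cluster 5 at 2 weeks, at 398 and 207 CPM, and Nid1 is highest in cluster 0.

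In smooth muscle cell-like cells the set was nearly level, with a median log2 ratio of 0.01 beside 0.05 over all genes. Col4a1 (-0.14), Col4a2 (-0.15), Col18a1 (-0.01), Lamc1 (0.06) and Hspg2 (0.02) had intervals that reached 0, and so had Lama4 (-0.27). Col15a1 was higher at 4 weeks, with 732 UMIs (235 CPM) and 313 UMIs (347 CPM) and a ratio of 0.56 (0.37 to 0.75), or 0.39 without doublet removal. Lama2 was higher by 0.75 (0.27 to 1.22). In the same cells summed pericyte markers went from 922 to 1697 CPM, with 1 of 8 (Higd1b) at 0 at both times, and macrophage markers from 217 to 60.9 CPM, with 0 and 4 of 10 at 0. Col15a1 stood at 1040 and 595 CPM in cluster 22, which carries pericyte markers. Their part in these ratios was not tested. Nid1 was the only gene past 2-fold, lower by -1.06 (-1.99 to -0.25) on 101 and 14 UMIs, beside 2.92% of genes lower and 2.88% higher. Without doublet removal, and as a mean over cells, Nid1 did not pass 2-fold. Its share of thinned cells at 4 weeks was not above that of thymocyte-like cells, as given above.

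In endothelial cell-like cells the collagens were lower at 4 weeks. Col4a1 had 807 UMIs (1635 CPM) in 41 cells at 2 weeks and 140 UMIs (544 CPM) in 26 cells at 4 weeks, a log2 ratio of -1.59 (-1.86 to -1.33). Col4a2 went from 446 to 78 UMIs, with a ratio of -1.58 (-1.94 to -1.23), and Col15a1 from 374 to 42 UMIs, with -2.21 (-2.71 to -1.75). Lama4 was at -1.02 (-1.79 to -0.32) on 82 and 21 UMIs. Col18a1 (-0.45), Lamb1 (-0.75) and Lamc1 (-0.43) were short of 2-fold, and Nid1 and Hspg2 were both at -0.06. The 4 genes past 2-fold, of 9 with 20 UMIs or more, compare with 9.02% of 5386 genes lower and 5.55% higher, and the median of the set was -0.75 beside -0.06.

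These endothelial values rest on few cells. A single cell gave 16.2% of the Col4a1 UMIs at 2 weeks and 22.9% at 4 weeks, and 16.04% and 38.1% of the Col15a1 UMIs. With the top cell of each gene left out in each library, Col4a1 was at -1.73, Col4a2 at -1.75, Col15a1 at -2.53, Lama4 at -0.98 and Col18a1 at -0.82. With cells of at most 5% mitochondrial UMIs (40 and 20 cells), 2 genes remained past 2-fold, Col4a1 at -1.17 and Col15a1 at -2.36. Col4a2 was then at -0.96 and Lama4 at -0.61. In thinned cells the share with a Col4a1 UMI was 73.2% at 2 weeks and 40.0% at 4 weeks, and in thymocyte-like cells 0.971% and 1.19%. Endothelial markers summed to 7066 and 6840 CPM, with 10 of 10 detected at each time, whereas fibroblast markers in these cells went from 403 CPM (1 of 11 at 0, Pdgfra) to 2041.5 CPM (none at 0). The part of the latter in the ratios was not tested.

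Over all kept cells, which mixes level and cell numbers, Col18a1 was lower by -1.18 on the log2 scale, past 2-fold as 11.8% of all genes were, and no member was higher by 2-fold, as 3.79% of all genes were. Col15a1 was at -0.81, Lama2 at 0.80 and Nid1 at 0.72. Lama2 and Nid1 were thus higher in the 4-week library as a whole, in which fibroblast-like cells made up 41.1% of cells.

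Outside the 3 classes, 3 smaller clusters also carried the set. Cluster 22 (80 and 72 cells), led by Apod, Rgs5 and Myoc, had 5 of 8 pericyte markers and 45.5% of the fibroblast list, and its summed level was 5261 and 4308 CPM. Of the 17 classes and clusters large enough to compare, it ranked first for Col15a1, Lama2 and Hspg2 at both times. At 4 weeks it also ranked first for Col4a1, Col4a2, Lamb1 and Lamc1. Its interval overlapped that of the second for those last genes, for Hspg2 at both times and for Lama2 at 2 weeks. Its Col15a1 stood at 1040 and 595 CPM. Its Col4a1 stood at 1122 and 710 CPM and its Nid1 at 791 and 1131 CPM. Its Col4a1 was thus above that of smooth muscle cell-like cells in both libraries, and its Nid1 far above theirs. Between the libraries its Col18a1 went from 432 to 151 CPM, a log2 ratio of -1.51 (-1.87 to -1.17).

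Cluster 16 (130 and 107 cells), led by Pex5l, Tnfrsf11b and Ltbp2 and also by the cartilage and tendon genes Comp, Fmod and Acan, had a summed level of 1748 and 2052 CPM, below the 3 classes, and more collagen IV at 4 weeks than at 2. Its Col4a1 stood at 311 and 440 CPM and its Col4a2 at 187 and 283 CPM, log2 ratios of 0.50 and 0.60. Lama2 made up 80.0% and 67.1% of its Lama2 and Lama4 UMIs, against 29.7% and 40.2% in fibroblast-like cells. Cluster 32 (21 and 19 cells), led by Mmrn1, Ccl21a and Prox1, had 6 of 7 lymphatic endothelial markers and a summed level of 3317 and 2221 CPM. It had 0 UMIs of Col15a1 and of Lama2 at both times, which allows up to 12.2 and 21.6 CPM, and its Lama4 stood at 530 and 532 CPM. Endothelial cell-like cells, by contrast, had 758 and 163 CPM of Col15a1.

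Other basement membrane components followed the classes. Of 24 such genes, 11 were at least 2-fold higher and 8 lower in smooth muscle cell-like than in fibroblast-like cells at 2 weeks (45.8% and 33.3%, beside 14.1% and 17.0% of all genes), and 10 and 7 at 4 weeks (41.7% and 29.2%, beside 15.6% and 12.8%). Npnt, an adhesive matrix protein that binds integrin, stood at 1143 and 853 CPM in smooth muscle cell-like cells and at 3.204 and 0.520 in fibroblast-like cells. Smoc1 and Tinagl1, named after their values were seen, stood at 479 and 606 CPM and at 217 and 174 CPM in smooth muscle cell-like cells. Between the libraries, 1 of the 24 (4.17%) was at least 2-fold higher and 2 (8.33%) lower in fibroblast-like cells, and 0 and 1 in smooth muscle cell-like cells, shares near those of all genes (2.38% and 5.37%, 2.88% and 2.92%). In endothelial cell-like cells 5 (20.8%) were higher and 1 lower, beside 5.55% and 9.02%. There Lamb2 was higher by 1.36 and Col8a1 by 1.41, and Vwa1 was lower at -2.04, on 95 and 12 UMIs.

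Of 11 receptor genes, 6 (54.5%) were at least 2-fold higher in smooth muscle cell-like than in fibroblast-like cells at both times, beside 14.1% and 15.6% of all genes, and 3 and 1 were lower, beside 17.0% and 12.8%. In endothelial cell-like cells 5 and 6 were higher, beside 19.2% and 18.2%, and 2 and 1 lower, beside 14.6% and 11.4%. Bcam, a laminin receptor that binds the α5 chain, stood at 305 and 318 CPM in smooth muscle cell-like, 203 and 288 in endothelial cell-like, and 1.31 and 0.807 in fibroblast-like cells. Itgb4, a laminin-binding integrin chain, stood at 156 and 148 CPM in endothelial cell-like cells and had 1 and 0 UMIs in smooth muscle cell-like cells, the 0 again allowing up to 3.32 CPM. Its partner Itga6 went from 294 to 140 CPM in endothelial cell-like cells, a log2 ratio of -1.07.

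Of 14 genes of collagen assembly and crosslinking, 1 (7.14%) was at least 2-fold lower at 4 weeks in fibroblast-like cells, beside 5.37% of all genes. By counting intervals alone, 13 were below 0 and 0 above, beside 24.5% below and 25.04% above among all genes, and the median was -0.39 beside 0.01. Such intervals leave 0 more readily for genes with more UMIs, which were not matched here, and no values within clusters were taken. The gene past 2-fold was Loxl2, a lysyl oxidase, at -1.09, from 228 to 107 CPM, and Pxdn, the peroxidase that forms the sulfilimine crosslink of collagen IV, stood at -0.80, from 98.9 to 56.7 CPM. In endothelial cell-like cells Pxdn went from 351 to 194 CPM (-0.85). In smooth muscle cell-like cells the list's median was -0.01, with 1 gene, Loxl2 on 51 and 7 UMIs, lower by 2-fold.

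Proteases and their inhibitors were mostly lower outside fibroblast-like cells. Of 13 genes, 9 (69.2%) were at least 2-fold lower in smooth muscle cell-like than in fibroblast-like cells at both times, beside 17.0% and 12.8% of all genes, and 8 (61.5%) in endothelial cell-like cells, beside 14.6% and 11.4%. Timp3, an inhibitor of metalloproteinases named after its values were seen, was the 1 gene higher in smooth muscle cell-like cells, at 1412 and 1576 CPM against 481 and 593, and it was also the 1 higher in endothelial cell-like cells at 4 weeks. Mmp2, a gelatinase that cleaves collagen IV, stood at 1106.5 and 965 CPM in fibroblast-like, 36.3 and 32.1 in smooth muscle cell-like, and 62.8 and 117 in endothelial cell-like cells. Between the libraries in fibroblast-like cells, Timp1 was at -0.81 and Plau at 0.97, and Mmp9 passed 2-fold at -1.20 on 71 and 50 UMIs. In endothelial cell-like cells Adamts1 was lower by -1.25, and Timp2 was higher by 1.22, from 288 to 669 CPM, beside 2676 and 2960 CPM in fibroblast-like cells.

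The genes with the most similar pattern were named for each of the 10 by Pearson's r of log2(CPM + 1) over 64 units of cluster and library, among 11451 genes. The units share libraries, and the spread between immune and stromal clusters dominates r, so the values are descriptions. Col4a1 was most like Tjp1 (0.93), Foxc1 (0.93) and Cyr61 (0.92), and Col4a2 most like Zfp532 (0.93), Yap1 (0.93) and Mpdz (0.92). Col15a1 was most like Fjx1 (0.89), and Col18a1 most like Filip1 (0.92). Lama2 had Gpr153 (0.91), Lama4 had Meis2 (0.90), Lamb1 had Zfp521 (0.90) and Lamc1 had Col5a2 (0.87) at the top of their lists. Nid1 was most like Serping1 (0.95) and Hspg2 most like Igfbp7 (0.94). Among the 10, the pairs ran from 0.57 for Col18a1 and Lama2 to 0.91 for Col4a1 and Hspg2, and Col4a1 and Col4a2 were also at 0.91.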

How the data were processed

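The authors deposited raw UMI counts for each gene in each barcode. Per the file headers they come from Cell Ranger 4.0.0, and mm10 is the build in the submitters' processing notes. Whether counting used strand, and which 10x chemistry was run, is not given in the sources used here. Col4a1 and Col4a2 overlap on opposite strands at their starts, and Slc19a1 overlaps the end of Col18a1, so reads there can be told apart only if counting used strand. The tables had 78773018 UMIs in 5864 barcodes at 2 weeks and 83753250 in 8565 at 4 weeks.

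Barcodes were kept from 300 genes and 500 UMIs upwards when mitochondrial genes took no more than 10%, and the highest Scrublet scores were removed at 0.8% per 1000 barcodes, which took out 275 and 587 cells. Scrublet's own threshold called 64 (1.18%) and 271 (3.38%). Both libraries were clustered together with scanpy 1.11.5 and leidenalg 0.10.2 (2000 variable genes, 30 components, 15 neighbours, resolution 1, seed 1). A cluster took a name when at least 3 markers and 50% of a list were at 2 or more times the other clusters in at least 10% of cells, with a lead of 20 points over other lists. That scoring rule was written after values were seen.

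For each class and library, summed UMIs were turned into CPM, with Poisson intervals computed exactly. Log2 ratios have exact conditional binomial intervals and shares Clopper-Pearson intervals, all at 95%. A count of 0 was set at 3 counts for a ratio, and no ratio was called where that limit lay on the other side. A gene counts as higher or lower past a log2 ratio of 1 with at least 20 UMIs. The script was tested on simulated data. The members and lists were chosen with earlier results of these data known. Named other genes are the 3 largest log2 ratios between times per list and class with at least 50 UMIs, and the 3 most similar genes per member with at least 500 UMIs, over units of at least 20 cells. Other genes, apart from those that lead a cluster, are marked as chosen after their values were seen. Alternatives are in the closing section.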

Additional observations from a re-analysis of the deposited data

Results flagged for a closer look

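For 2 genes the ratio of 4 weeks to 2 weeks went opposite ways in 2 cell classes, each with a counting interval off 0. Col15a1 was higher in smooth muscle cell-like cells (0.56) and lower in fibroblast-like cells (-1.02), a difference of 1.58 on the log2 scale. Against endothelial cell-like cells (-2.21) the difference was 2.78. Nid1 was higher in fibroblast-like cells (0.09) and lower in smooth muscle cell-like cells (-1.06), a difference of 1.15. The fibroblast-like value turns to -0.063 with equal weight per cluster, with 3 of 5 clusters below 0 by their intervals and 0 above. The smooth muscle value is -0.57 as a mean over cells and -0.43 without doublet removal. At 4 weeks the share of thinned smooth muscle cell-like cells with a Nid1 UMI was not above that of thymocyte-like cells. With 1 library at each time these differences were not tested.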

How the results depend on the processing

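No paired analysis was possible because each time has 1 library. Few cells stand behind the endothelial (41 and 26) and smooth muscle (207 and 74) values, and every comparison of times rests on 1 library per time. The fibroblast-like share of the 10 genes' UMIs at 2 and 4 weeks was 72.3% and 88.1% without doublet removal, 76.1% and 91.67% at Leiden resolution 2, 76.2% and 92.4% at resolution 0.5, and 79.15% and 92.3% with at most 5% mitochondrial UMIs. At 4 weeks it was 91.4% with the basement membrane genes allowed in the clustering and 91.65% when the libraries were clustered separately, where no smooth muscle cell-like cluster was named at 4 weeks and the smooth muscle comparisons at that time were not run. With equal weight per fibroblast-like cluster the median ratio between times was -0.059 and 0 genes were lower by 2-fold, Col18a1 turning to 0.023. Without cluster 11, an alternative chosen after seeing the data, the median was -0.17, again with 0 genes. The count of 2 genes lower by 2-fold became 1 at resolution 2, and 0 with at most 5% mitochondrial UMIs or with libraries clustered separately, where Col15a1 was at -0.93 and -0.96. The 1 smooth muscle gene became 0 as a mean over cells and without doublet removal. The 4 endothelial genes became 2 with at most 5% mitochondrial UMIs. The 2 genes lower in endothelial than in fibroblast-like cells at 2 weeks became 5 under median-ratio scaling and 4 without each gene's top cell. The cause of these shifts was not tested. The other 178 recomputed summary values kept to within 1.5 times, or to within the counting interval, of the reported ones. Of the values of single genes, 659 did so, 99 moved further and 1 past 2-fold changed sign (Col18a1, above). Some settings changed only the minimum number of UMIs for counting a gene. Single-gene values and medians could not move under them, so part of the 659 and of the 178 was fixed in advance.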
